A study of Arabidopsis thaliana with 12 samples.

Results

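The RBOH genes of Arabidopsis thaliana encode respiratory burst oxidases, and 8 of them, RBOHA to RBOHG and RBOHI, were described here by their locus identifiers. They were RBOHA (AT5G07390), RBOHB (AT1G09090), RBOHC (AT5G51060), RBOHD (AT5G47910), RBOHE (AT1G19230), RBOHF (AT1G64060), RBOHG (AT4G25090) and RBOHI (AT4G11230). All 8 were found among the 22373 genes listed in each of the 4 deposited tables, of 24912 genes listed in any. Wild-type Col seedlings aged 10 days were grown on diluted MS medium alone (control) or with 1 of 2 polystyrene nanoplastics at 50 ug/ml, PS-SO3H, which carries sulfonic acid groups, or PS-NH2, which carries amino groups. Leaf and root were sequenced apart, which gave 6 groups of 2 libraries: leaf control, leaf PS-SO3H, leaf PS-NH2, root control, root PS-SO3H and root PS-NH2. The labels do not say whether the 2 libraries of a group came from separate plants, so p-values may measure technical spread only.

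RBOH proteins sit in the plasma membrane, take electrons from NADPH inside the cell and pass them through a flavin and haem groups to oxygen outside it, which yields superoxide. Superoxide dismutases turn this into hydrogen peroxide, and peroxidases of the cell wall use the peroxide. Calcium binds to EF-hands in the N-terminal part of the protein, and kinases that act after immune receptors phosphorylate the same part, so much of the control of these enzymes is exerted on the protein and is not visible in RNA. RBOHD is best known for the oxidative burst of leaf immunity and for systemic signalling, RBOHF for guard cells and for the lignin of the Casparian strip, and RBOHC, also called RHD2, for the growth of root hairs.

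Each of the 4 tables sets 1 particle against control in 1 tissue. It gives per gene a level for each of both groups (fitted, on the scale of reads scaled by size factors). It also gives a log2 fold change of treated over control, a p-value and an adjusted p. All levels, fold changes and adjusted p-values of treated against control groups below, for members and other genes, come from the authors' deposited tables. These hold no value per library, so library depth is unknown and the spread between libraries cannot be shown. The threshold for calling a gene here was an authors' adjusted p under 0.05. The authors' own marks of changed genes sit only on genes with a log2 size of at least 1 as well, and of the 8 members RBOHD alone is marked, in leaf with both particles. The standard error (SE) and the 95% intervals were recovered from the fold change and its p-value. The same control libraries serve both particles, and the 2 tables of a tissue fit their levels separately. For the 8 genes the log2 ratio of the 2 control levels lay between -0.27 (RBOHG) and 0.26 (RBOHB) in leaf and between 0.0037 (RBOHI) and 0.044 (RBOHA) in root. Scaling by size factors alone would give all genes of a tissue the same ratio, so the levels are not scaled reads alone. Tissue labels were checked with marker genes on the control levels: 6 of 6 leaf markers were lower in root, by a log2 ratio of -5.02 to -9.65, and 7 of 7 root markers were higher there, by 0.043 to 6.82. The lowest root marker, SCR at 0.043, lay below the median of all genes (0.55), so SCR does not set root apart here. Each table listed 1 of 2 pollen markers, VGD1 in leaf at a level of at most 0.489 and AT5G45880 in root at a level of at most 2.33, so neither could be compared between tissues.

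RBOHD dominated the family in untreated leaf, while untreated root held all 8 transcripts. RBOHD stood at a level of 5463 in leaf control in the PS-SO3H table and at 5430 in the PS-NH2 table, against 2643 and 2716 in root control. The log2 ratio of root over leaf was -1.02 for RBOHD, and it was positive for the other 7 genes. It was 8.74 for RBOHG, which went from a level of 2.20 in leaf to 942 in root as the mean over both tables. RBOHB, known from seed after-ripening, had 7.66, RBOHC had 5.99 and RBOHA had 5.67. RBOHE, studied in the tapetum of the anther, had 4.56, RBOHI had 3.91 and RBOHF had 2.18. These ratios have no test, because neither tissue has values per library, and the tissues were normalized separately. The median over all 22373 genes was itself 0.55, and 31.5% of genes had a ratio of at least 1. With an alternative median scaling between tissues, RBOHD had -1.32 and the other 7 lay between 1.89 (RBOHF) and 8.44 (RBOHG). That scaling moved the ratios by less than the median log2 ratio, 0.50 for genes at a level of at least 50 in both tissues. In bulk tissue, fewer cells that transcribe a gene and less RNA per cell cannot be told apart.

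Compared per kb of gene length, RBOHD held 93.7% of the summed RBOH level in leaf control and RBOHF 5.03%, and the other 6 each held under 1%. In root control RBOHD held 31.6%, followed by RBOHC with 17.7%, RBOHF with 15.7%, RBOHG with 13.8%, RBOHE with 9.30%, RBOHB with 7.52%, RBOHA with 3.28% and RBOHI with 1.18%. The order of RBOHC and RBOHF turned round when levels were divided by coding length, where RBOHC held 17.4% and RBOHF 18.0%. No spread over libraries is known for these levels, so neighbours in the order cannot be said to differ. In leaf, 4 of the 8 genes (RBOHA, RBOHB, RBOHG and RBOHI) had a mean level below 10 in both tables, and the SEs recovered for them with PS-SO3H (0.30 to 0.40) were smaller than those of RBOHC (0.42) and RBOHE (0.41) at several times the level, so their intervals in leaf are a poor guide to precision. In root all 8 were above that level.

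**Figure D1:**
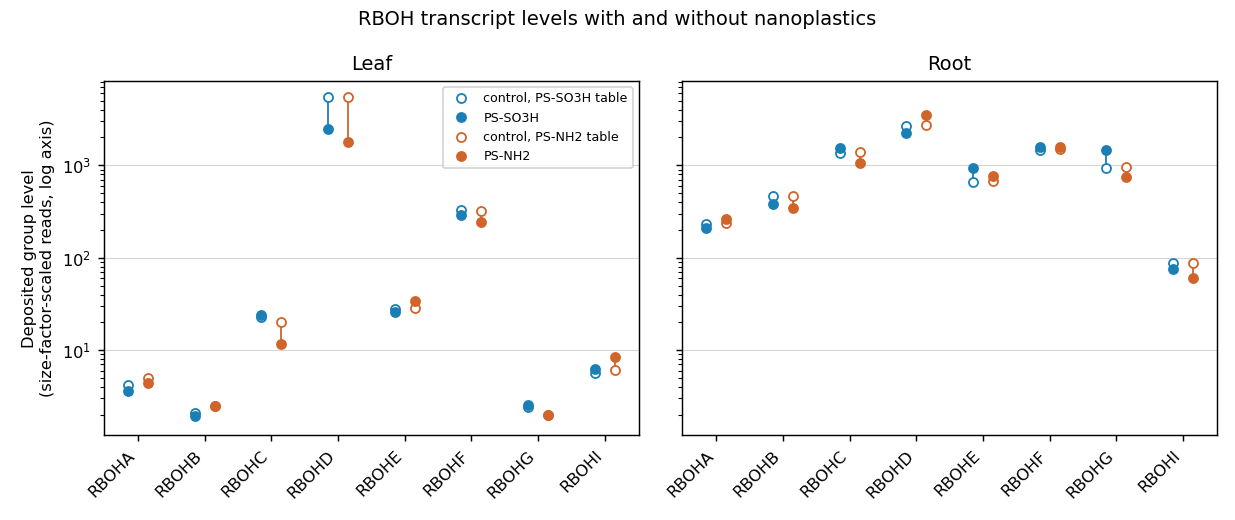
Deposited group levels of the 8 RBOH genes (fitted, on the scale of reads scaled by size factors, log axis) in leaf and root. Open circles are the control and filled circles the treated group of the same table, blue for PS-SO3H and orange for PS-NH2. In leaf RBOHD stands far above the other 7 and its treated levels of 2497 and 1798 lie below control. In root the 8 genes lie between 60.9 and 3464.

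RBOHD, RBOHG, RBOHE and RBOHC had an adjusted p below 0.05 in at least 1 table, and the 250 bases before their annotated starts are printed below for comparison. All 8 loci were matched by locus identifier in the RefSeq annotation of build TAIR10.1, which also gave the sequence. The submitters name TAIR10, and their tables hold no coordinates. Each is written 5′ to 3′ on the strand of its gene, in lower case. Matches to TTGAC, the core of the W-box that WRKY transcription factors bind, are in capitals on either strand (GTCAA where it lies on the opposite strand). Only these 5 bases were matched, and the base after them was not considered.
RBOHD, chr5:19396791-19397040, plus strand: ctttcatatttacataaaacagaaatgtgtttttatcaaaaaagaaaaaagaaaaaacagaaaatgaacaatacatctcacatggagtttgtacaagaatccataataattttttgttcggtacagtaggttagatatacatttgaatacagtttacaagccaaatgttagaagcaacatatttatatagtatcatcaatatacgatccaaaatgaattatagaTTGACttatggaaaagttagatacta
RBOHG, chr4:12883806-12884055, minus strand: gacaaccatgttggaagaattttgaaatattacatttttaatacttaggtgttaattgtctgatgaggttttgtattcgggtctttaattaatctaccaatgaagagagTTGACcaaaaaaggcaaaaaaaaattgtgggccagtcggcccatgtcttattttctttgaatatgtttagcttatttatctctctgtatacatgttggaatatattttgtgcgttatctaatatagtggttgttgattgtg
RBOHE, chr1:6643692-6643941, plus strand: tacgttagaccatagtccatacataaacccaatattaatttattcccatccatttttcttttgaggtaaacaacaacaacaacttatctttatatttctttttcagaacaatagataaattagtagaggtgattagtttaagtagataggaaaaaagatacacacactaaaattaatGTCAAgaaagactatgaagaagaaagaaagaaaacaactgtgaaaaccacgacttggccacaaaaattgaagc
RBOHC, chr5:20762462-20762711, minus strand: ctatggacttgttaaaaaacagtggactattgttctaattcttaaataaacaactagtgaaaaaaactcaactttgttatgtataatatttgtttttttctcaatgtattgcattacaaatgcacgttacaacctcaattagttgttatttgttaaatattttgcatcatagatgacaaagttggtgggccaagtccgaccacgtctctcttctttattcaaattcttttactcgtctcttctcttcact
A match was found in 5 of the 8 upstream windows, RBOHA, RBOHB (3 matches), RBOHD, RBOHE and RBOHG, and 44.9% of 27443 protein-coding genes have 1 in the same window. In RBOHD it begins 26 bases before the start, on the strand of the gene, and in RBOHG 141 bases before it. RBOHE has its match on the opposite strand. The G-box CACGTG and the GCC box GCCGCC, searched on both strands, were in 0 of the 8 windows, against 6.49% and 1.87% of all windows. A match describes letters only and says nothing of binding.

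Similarity between the coding sequences bears on how reads are shared between the genes. Over the 28 pairs the share of identical bases in a global alignment was 60.8% to 76.4%, with RBOHC and RBOHG the most alike pair. The longest identical run of RBOHC and RBOHG was 26 bases, the longest of all pairs. In the TAIR10.1 annotation 4 members overlap a gene on the opposite strand: RBOHA by 169, RBOHE by 133, RBOHB by 59 and RBOHG by 37 bases. Whether counting used the strand is not given in the sources used here.

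In leaves of seedlings raised with the sulfonated particle, RBOHD was the oxidase transcript that differed from control. RBOHD fell in the authors' deposited table from a level of 5463 to 2497, a log2 fold change of -1.13 ± 0.13 (SE; 95% interval -1.39 to -0.87; authors' adjusted p = 3.03e-15). The level thus fell by 54.3%, to 2.19-fold lower than control. RBOHD was the only member called, 1 of 8 (RBOHD, lower), where 2.63% of 23529 genes were called lower and 4.46% in either direction. It ranked 44 among all genes by p. The other well transcribed member, RBOHF, went from 326 to 292 (-0.16 ± 0.21, adjusted p = 0.98). RBOHC had levels of 22.8 and 23.9 and RBOHE of 27.8 and 25.9, with intervals of -0.75 to 0.89 and -0.91 to 0.69 for the log2 fold change, which span 0 and do not reach the -1.13 of RBOHD. RBOHA (4.25 and 3.65), RBOHB (2.09 and 1.95), RBOHG (2.41 and 2.58) and RBOHI (5.66 and 6.30) stayed at low levels in both groups. The median over the 8 genes was -0.10, and over all genes -0.00044.

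With the amino-bearing particle the same gene was called in leaf. RBOHD fell from 5430 to 1798 in the authors' deposited table (log2 -1.59 ± 0.11, 95% interval -1.82 to -1.37, authors' adjusted p = 1.79e-42), to a level 3.02-fold lower than control. It ranked 18 of 23480 genes by p, and was again the 1 member of 8 called, where 7.4% of genes were called lower and 11.2% in either direction. The count of members called is thus near the share of all genes. RBOHF had levels of 323 and 246 (-0.39 ± 0.21, interval -0.79 to 0.012, adjusted p = 0.28). RBOHC had 20.2 and 11.6 (-0.80 ± 0.54, adjusted p = 0.50), and RBOHE had 28.8 and 34.0 (0.24 ± 0.47). The 4 genes at low levels were RBOHA (4.97 and 4.45), RBOHB (2.51 and 2.52), RBOHG (1.99 and 2.00) and RBOHI (6.08 and 8.41). The median over the 8 genes was -0.080, and over all genes -0.00065.

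With RBOHD lower, the summed RBOH level per kb in leaf went from 1619 to 787 with PS-SO3H and from 1609 to 581 with PS-NH2, as ratios of 0.486 and 0.361. Without RBOHD the ratios were 0.915 and 0.808. RBOHD still held 88.1% of the family in leaf with PS-SO3H and 85.8% with PS-NH2, and RBOHF 9.31% and 10.6%. These sums are descriptions of fitted levels and have no test. Of the 6 leaf markers 0 were called with PS-SO3H and 3 fell with PS-NH2 (LHCB1.1, LHCB2.1 and CAB3), where 4.46% and 11.2% of all genes were called. The summed level of the 6 went from 666765 to 726583 and from 659752 to 668103. The summed level of the 7 root markers in leaf went from 1657 to 1693 and from 1637 to 1632. The part of these markers in the RBOHD result was not tested.

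**Figure D2:**
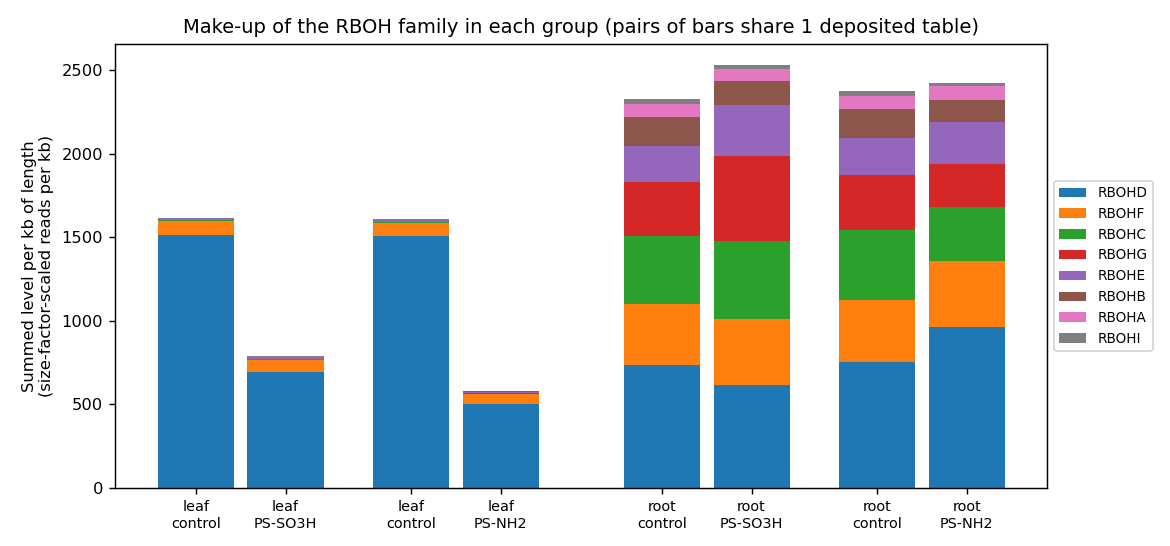
Summed RBOH level per kb of gene length (stacked bars, 1 colour a gene) for control and treated groups, in pairs that share 1 deposited table. In leaf the bars shrink from 1619 to 787 and from 1609 to 581, nearly all of it RBOHD, while in root they stay between 2326 and 2532 and the parts of RBOHD and RBOHG change.

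In root with PS-SO3H the called members were RBOHG and RBOHE, both higher. RBOHG, whose role is less studied, rose in the authors' deposited table from 935 to 1478 (log2 0.66 ± 0.11, 95% interval 0.44 to 0.89, authors' adjusted p = 8.63e-07), and RBOHE rose from 660 to 942 (0.51 ± 0.13, interval 0.26 to 0.77, adjusted p = 0.00308). In percent of control these are gains of 58.0 and 42.7. So 2 of 8 members were called, both higher, where 2.88% of 23818 genes were called higher and 4.84% in either direction. RBOHD went from 2643 to 2220 (-0.25 ± 0.098, interval -0.44 to -0.060), which missed the threshold (adjusted p = 0.14). RBOHC had 1352 and 1530 (0.18 ± 0.11, adjusted p = 0.64) and RBOHF 1457 and 1576 (0.11 ± 0.10, adjusted p = 0.96). RBOHB had 460 and 384 (-0.26 ± 0.16), RBOHA 231 and 210 (-0.13 ± 0.19) and RBOHI 88.1 and 75.04 (-0.23 ± 0.29). The median over the 8 genes was -0.011, and over all genes -0.0039.

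Values were taken for 3 of the protein-coding genes that overlap or lie near the 2 risen members. Of these 3, 0 were called in that table by the authors' adjusted p, where 4.84% of all genes were, so the count is near that share. Other annotated neighbours were not examined. They are FMO1, AT1G05483 and AT1G05487 near RBOHE, the last a noncoding RNA gene 422 bases away on the same strand, and AT4G25070 near RBOHG. CHLM, a chlorophyll synthesis gene that overlaps RBOHG, had 756 and 609 (-0.31 ± 0.14, adjusted p = 0.24). FSD1, an iron superoxide dismutase gene that lies 494 bases from RBOHG on the same strand, had 23594 and 27186 (0.20 ± 0.078, adjusted p = 0.13). AT1G19240, which overlaps RBOHE, had 239 and 262 (0.13 ± 0.19, adjusted p = 0.99). Of the 7 root markers 3 rose with PS-SO3H (COBL9, EXPA7 and NIP1;1), where 2.88% of all genes were called higher and 4.84% in either direction. SCR, CASP1 and PRP3 had positive fold changes and were not called. PHO1, at the highest level of the 7, had 10744 and 8999 (-0.26 ± 0.095, adjusted p = 0.11). The summed level of the 7 went from 19798 to 21966. LHCB1.1 fell among the 6 leaf markers, whose summed level in root went from 7547 to 6643. The part of these markers in the result was not tested.

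In root with PS-NH2 the called members were RBOHD and RBOHC, in opposite directions. RBOHD rose in the authors' deposited table from 2716 to 3464 (log2 0.35 ± 0.088, 95% interval 0.18 to 0.52, authors' adjusted p = 0.00313), and RBOHC, the root hair oxidase, fell from 1379 to 1066 (-0.37 ± 0.11, interval -0.59 to -0.15, adjusted p = 0.0227). That made 1 of 8 higher, where 1.62% of 23839 genes were called higher, and 1 of 8 lower, where 2.7% were called lower and 4.32% in either direction. RBOHG had 949 and 756 (-0.33 ± 0.12, adjusted p = 0.12) and RBOHB 469 and 344 (-0.45 ± 0.18, adjusted p = 0.19), both with intervals below 0 (-0.57 to -0.089 and -0.80 to -0.097) that carry no adjustment for multiple testing. RBOHE had 673 and 760 (0.18 ± 0.14), RBOHF 1493 and 1589 (0.090 ± 0.11), RBOHA 238 and 261 (0.13 ± 0.18) and RBOHI 88.3 and 60.9 (-0.54 ± 0.30). The median over the 8 genes was -0.12, and over all genes -0.00028. Of the 7 root markers 1 fell (PHO1) and 0 rose, where 2.7% of all genes were called lower and 1.62% higher. The summed level of the 7 went from 19911 to 16733, with PHO1 alone going from 11005 to 8575. SCR (0.064 ± 0.12) and NIP1;1 (0.15 ± 0.096) had positive fold changes and were not called. Of the 6 leaf markers, 2 rose in root (GAPA and RBCS1A) and 1 fell (LHCB1.1), where 4.32% of all genes were called. The summed level of the 6 in root went from 7770 to 9459, against 659752 in leaf control. The part of these markers in the fall of RBOHC and the rise of RBOHD was not tested.

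None of the 8 log2 fold changes in root reached a size of 1 with either particle. The summed level per kb went from 2326 to 2532 with PS-SO3H and from 2378 to 2428 with PS-NH2, ratios of 1.09 and 1.02. The share of RBOHD went from 31.5% to 24.3% with PS-SO3H and from 31.7% to 39.6% with PS-NH2, and that of RBOHG from 13.9% to 20.1% and from 13.7% to 10.7%.

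**Figure D3:**
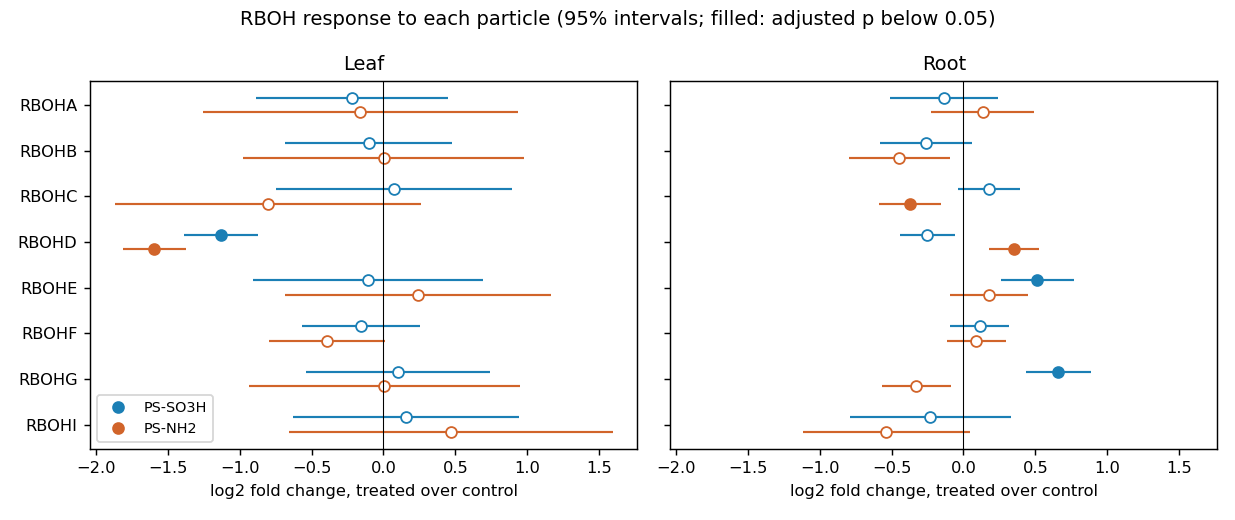
log2 fold change of treated over control for the 8 RBOH genes in leaf and root, with 95% intervals, blue for PS-SO3H and orange for PS-NH2. Filled circles had an authors' adjusted p below 0.05. RBOHD lies at -1.13 and -1.59 in leaf, and in root the called points are RBOHG and RBOHE with PS-SO3H and RBOHD and RBOHC with PS-NH2.

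The particles, which differ in the charged group on the polystyrene, were compared at the same dose for 8 genes in 2 tissues, 16 pairs. The log2 fold change with PS-SO3H was subtracted from that with PS-NH2, and p-values were adjusted over all genes of both tables. In root 3 of 8 members differed. RBOHG was lower with PS-NH2 by a difference of -0.99 ± 0.17 (95% interval -1.32 to -0.66, adjusted p = 7.72e-07), its levels being 1478 with PS-SO3H and 756 with PS-NH2. RBOHC was lower by -0.55 ± 0.16 (interval -0.86 to -0.25, adjusted p = 0.0176), and RBOHD was higher by 0.60 ± 0.13 (interval 0.34 to 0.86, adjusted p = 0.000424). Over 23506 genes 3.24% differed, 0.974% higher and 2.26% lower with PS-NH2. For RBOHE the difference was -0.34 ± 0.19 (-0.71 to 0.035) and for RBOHF -0.023 ± 0.15 (-0.31 to 0.27). It was -0.19 for RBOHB (-0.66 to 0.29), 0.27 for RBOHA (-0.25 to 0.79) and -0.31 for RBOHI (-1.11 to 0.50), so differences of the size seen for RBOHD lie within the intervals of these last genes.

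In leaf 0 of 8 members differed between the particles by this normal test on the recovered SEs, where 3.17% of 23150 genes did. At an unadjusted p below 0.05 there was 1 member, RBOHD, whose difference was -0.46 ± 0.17 (95% interval -0.80 to -0.13, adjusted p = 0.15). The shared control libraries make this SE too large. When the covariance from sharing controls was allowed for, the adjusted p for RBOHD was 0.00327 and 1 of 8 members differed in leaf, while the count in root was again 3. With no value per library, that covariance could not be measured and was an assumption, so the leaf result for RBOHD depends on it. For RBOHF the leaf difference was -0.23 (-0.81 to 0.34), and for the 6 others the intervals were wider than 2 log2 units.

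The response of RBOHD differed between tissues for both particles. The difference root minus leaf was 0.88 ± 0.16 with PS-SO3H (95% interval 0.56 to 1.198, adjusted p = 1.71e-05) and 1.95 ± 0.14 with PS-NH2 (interval 1.67 to 2.23, adjusted p = 2.94e-38). With PS-NH2 it ranked 3 among 22714 genes by p, a fall in leaf (-1.59) set against a rise in root (0.35). RBOHD was the 1 member of 8 called in each, where 2.54% of 22720 genes differed with PS-SO3H, 1.63% being higher in root, and 6.58% with PS-NH2, 4.59% being higher in root. RBOHG and RBOHE had root minus leaf differences of 0.56 (-0.12 to 1.24) and 0.62 (-0.22 to 1.46) with PS-SO3H, and RBOHC had 0.43 (-0.65 to 1.52) with PS-NH2. Their low levels in leaf leave those intervals wide, so their changes in root are not shown to be particular to root. For RBOHF the difference with PS-NH2 was 0.48 (0.028 to 0.93, adjusted p = 0.29).

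**Figure D4:**
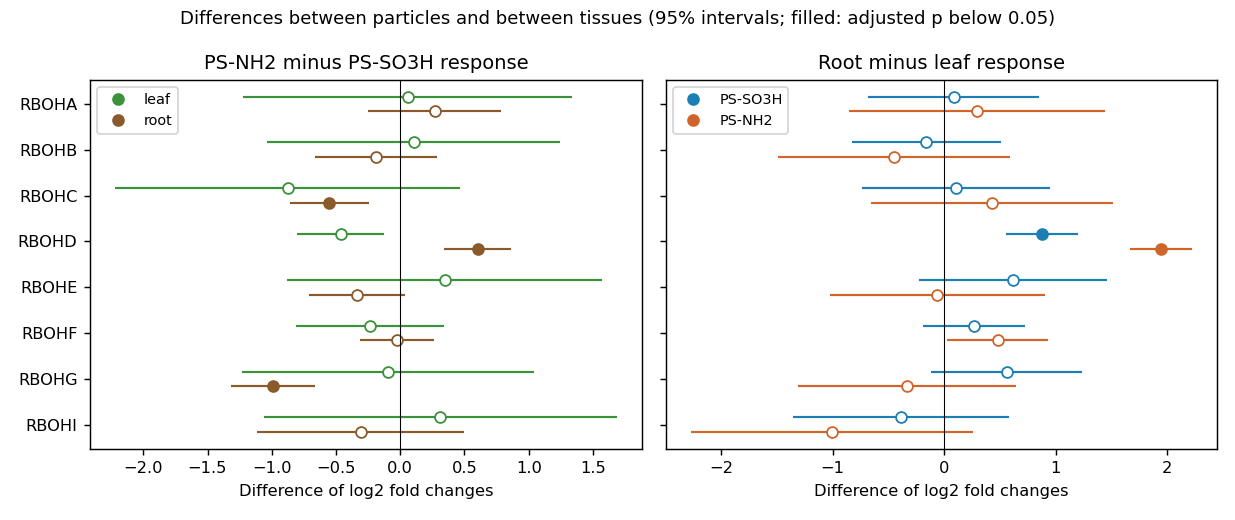
Differences of log2 fold changes with 95% intervals for the 8 RBOH genes: left, PS-NH2 minus PS-SO3H in leaf (green) and root (brown); right, root minus leaf for PS-SO3H (blue) and PS-NH2 (orange). Filled circles had an adjusted p below 0.05: RBOHC, RBOHD and RBOHG between particles in root, and RBOHD between tissues at 0.88 and 1.95.

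Genes with the most similar response were found by Euclidean distance over the 4 deposited log2 fold changes, among about as many genes in each search (15535 for RBOHD and 15536 for the others) at a mean level of at least 50 in both tissues. Nearest to RBOHD were SHM7 (distance 0.25), APR2 (0.42) and CYP94C1 (0.43). Nearest to RBOHG were PRA1.B5 (0.098), AT4G31250 (0.20) and AGL20 (0.24), and nearest to RBOHE were MK (0.10), GRF4 (0.14) and AT1G28100 (0.16). RBOHC had RABH1c (0.10), AT3G57020 (0.12) and CPK31 (0.12). The leaf values in these distances rest on low control levels for RBOHG (2.20), RBOHC (21.5) and RBOHE (28.3).

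Receptors that start the activation of RBOHD were often called lower in leaf with PS-NH2 in the authors' deposited tables. Of 12 such genes 8 were lower and 1 higher (FER) with PS-NH2 (median -0.68), where 7.4% of all genes were lower and 11.2% were called. With PS-SO3H 3 were lower and 0 higher (median -0.052), where 2.63% of all genes were lower. LYK5, a chitin receptor, had -1.87 ± 0.20 with PS-NH2 and -0.97 ± 0.20 with PS-SO3H. PEPR1, a receptor of damage peptides, had -0.60 ± 0.14 and -0.62 ± 0.14, and CRK2, a receptor-like kinase that phosphorylates RBOHD, had -0.76 ± 0.18 and -0.55 ± 0.17. SOBIR1, a partner of receptor-like proteins, had -1.68 ± 0.17 with PS-NH2, and RLP23 had -2.13 ± 0.53. PEPR2 had -1.08 ± 0.30, DORN1 had -0.92 ± 0.20 and the flagellin receptor gene FLS2 had -0.53 ± 0.17 with PS-NH2. The list was chosen with earlier results of these data known. In root 0 of the 12 were called with PS-SO3H and 1, CERK1, was lower with PS-NH2 (-0.38 ± 0.12), where 4.84% and 4.32% of all genes were called, with medians of -0.088 and -0.14.

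Of 19 genes for kinases, phosphatases and G proteins that act on RBOH enzymes or just before them, 3 were called in leaf with PS-SO3H and 4 with PS-NH2, where 4.46% and 11.2% of all genes were. In root 2 were called with PS-SO3H and 1 with PS-NH2, where 4.84% and 4.32% were, and the single call with PS-NH2 is near that share. In leaf with PS-NH2 4 fell and 0 rose. They were the G protein gene XLG2 (-1.48 ± 0.16), CPK28 (-1.47 ± 0.17), whose kinase limits the burst by promoting loss of BIK1, the calcium-dependent kinase gene CPK4 (-0.64 ± 0.20), and BIK1 itself (-0.47 ± 0.15), the kinase that phosphorylates RBOHD after receptor activation. With PS-SO3H 2 fell in leaf, CPK28 (-1.19 ± 0.16) and XLG2 (-0.65 ± 0.15), and the phosphatase gene ABI1 rose (0.46 ± 0.15). In root ABI1 (0.36 ± 0.10) and CPK11 (0.39 ± 0.12) rose with PS-SO3H, and CBL1, a calcium sensor gene, fell with PS-NH2 (-0.71 ± 0.17). Medians were 0.054 and 0.0015 in leaf and -0.021 and -0.088 in root, for PS-SO3H and PS-NH2 in turn.

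Root hair genes, among which RBOHC acts, rose in part in root with PS-SO3H. Of 9 genes 3 were higher and 0 lower, where 2.88% of all genes were higher, with a list median of 0.59. They were COW1 (0.87 ± 0.18), the regulator gene RSL2 (0.64 ± 0.18) and the expansin gene EXPA7 (0.59 ± 0.14). With PS-NH2 0 of 9 were called in root and the median was -0.041. Between the particles 3 of the 9 were lower with PS-NH2 in root, the direction of the RBOHC difference, where 2.26% of all genes were lower, and 0 were higher. EXPA7 and PRP3 serve both here and among the root markers. In leaf 1 of 9 rose with PS-NH2, the GTPase gene ROP2 (0.72 ± 0.13), a count near the share of all genes called (11.2%). With PS-SO3H 0 were called in leaf, where 4.46% of all genes were. The leaf medians were 0.072 with PS-NH2 and 0.047 with PS-SO3H. Of 8 Casparian strip genes, among which RBOHF acts, 1 rose in root with PS-SO3H, the receptor gene GSO1 (0.34 ± 0.11, median of the list 0.12), where 2.88% of all genes rose, and 0 were called in the other 3 tables (medians -0.0058, 0.012 and -0.082 for leaf PS-SO3H, leaf PS-NH2 and root PS-NH2).

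Dismutases, catalases and peroxidases handle superoxide and hydrogen peroxide. The list was not limited to enzymes that meet the products of RBOH proteins. Of 12 such genes, 4 fell in leaf with PS-NH2, where 7.4% of all genes fell and 11.2% were called. They were PRX34 (-1.38 ± 0.18), a cell wall peroxidase gene of the immune burst, CSD1 (-0.61 ± 0.17), CAT2 (-0.49 ± 0.14) and FSD1 (-0.32 ± 0.10). In leaf with PS-SO3H 0 were called by the authors' adjusted p, and the medians were -0.25 with PS-NH2 and 0.021 with PS-SO3H. In root 3 were called with PS-SO3H and 2 with PS-NH2, where 4.84% and 4.32% of all genes were. In root with PS-SO3H PRX34 rose (0.62 ± 0.088) while the copper-zinc dismutase genes CSD1 (-0.74 ± 0.11) and CSD2 (-0.57 ± 0.12) fell (median 0.012). In root with PS-NH2 the catalase gene CAT3 rose (0.51 ± 0.075) and CSD1 fell (-0.35 ± 0.11), with a median of -0.098.

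Transcripts used as signs of oxidative stress or of peroxide sensing, 10 in all, had 6 called in leaf with PS-NH2, where 11.2% of all genes were, and 6 in root with PS-SO3H, where 4.84% were. There were 2 called in leaf with PS-SO3H and 2 in root with PS-NH2, where 4.46% and 4.32% were. In leaf with PS-NH2 there were 5 lower and 1 higher (median -0.76). The transcription factor gene ERF109 had -4.31 ± 0.37, AT1G57630 had -2.09 ± 0.41, TI1 had -1.33 ± 0.33, AT1G19020 had -1.23 ± 0.19 and the zinc finger gene ZAT10 had -0.99 ± 0.13, while AT2G21640 rose (0.79 ± 0.26). With PS-SO3H in leaf ERF109 fell (-3.58 ± 0.31) and TI1 rose (0.86 ± 0.27), with a median of -0.12. In root with PS-SO3H 3 rose, AT2G21640 (1.68 ± 0.24), AT1G05340 (0.92 ± 0.15) and ZAT12 (0.59 ± 0.17), and 3 fell, ERF109 (-1.15 ± 0.36, at levels of only 11.4 and 5.13), ZAT10 (-0.88 ± 0.19) and GHR1 (-0.47 ± 0.15), with a median of 0.15. In root with PS-NH2 AT2G21640 rose (1.02 ± 0.27) and AT1G19020 fell (-0.70 ± 0.20), with a median of -0.18.

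The ferric reductase oxidases, a related family that passes electrons from NADPH through flavin and haem to iron, had 1 of 8 genes called in each table, where 4.46% (PS-SO3H) and 11.2% (PS-NH2) of all genes were called in leaf, and 4.84% and 4.32% in root. In leaf with PS-NH2 the count is near the share of all genes. FRO6 fell in leaf with both particles (-0.65 ± 0.15 with PS-SO3H and -0.64 ± 0.14 with PS-NH2). FRO4 rose in root with PS-SO3H (0.67 ± 0.13) and FRO2, the iron uptake reductase of the root, with PS-NH2 (1.17 ± 0.12). Medians were -0.14 and -0.29 in leaf and 0.23 and -0.10 in root.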

How the data were processed

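Per the labels' protocols, Trizol RNA was turned into cDNA from random primers. The submitters' processing notes name build TAIR10; no source used here gives the aligner, the counter or their settings, and the design text also describes gel selection of small RNAs. Each deposited table holds a level per group, a signal (reads scaled by size factors) fitted by the authors with DESeq2 (per the names of the deposited tables), a log2 fold change, which is the log2 ratio of both levels by the authors, and the authors' p-value and adjusted p. Levels were not divided by length, and gene length was taken from the authors' length column. The SE was recovered as the size of the log2 fold change over the normal quantile of p. Differences of 2 log2 fold changes used the summed squared SEs and a normal p (2-sided), adjusted by Benjamini-Hochberg over all genes of both tables. The step was tested on simulated data with independent errors, for genes at a mean level of at least 50. That setting leaves out shared controls and low levels. Tables of the 2 tissues were normalized separately.

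The members and the 7 lists of 78 genes were chosen with earlier results of these data known, and no list test was run. Genes named from lists are up to 3 called members a list and table with the largest change at a mean level of at least 50, and all called members where 5 or fewer were called. Some genes fall outside this rule and were named after their values were seen. These are FLS2, PEPR1, PEPR2, DORN1, CRK2, FER, AT1G19020, ZAT10 and AT2G21640 with PS-NH2 in leaf, and ZAT12, ERF109 and GHR1 with PS-SO3H in root. Coding sequences and upstream windows of 250 bases came from RefSeq (TAIR10.1), and pairs were aligned with Biopython 1.88. Work was done with Python 3.11.15, pandas 2.3.3, scipy 1.17.1 and matplotlib 3.10.9. Alternatives were stricter limits, a filter at level 10, re-centring, a pseudocount of 1, a covariance for shared controls and other scalings of tissue levels.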

Additional observations from a re-analysis of the deposited data

Results flagged for a closer look

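The response of RBOHD differed between leaf and root in a direct test of the difference, with both particles. Root minus leaf was 0.88 on the log2 scale with PS-SO3H, from -1.13 in leaf and -0.25 in root, and 1.95 with PS-NH2, from -1.59 in leaf and 0.35 in root. The tables of both tissues were normalized separately. Re-centring each table on its median gene kept both calls.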

How the results depend on the processing

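No paired analysis was possible because the tables hold 1 level per group and no value per library, and for the same reason no fit without a replicate could be made. Calls of members against control were the same with a filter at a mean level of 10 and with re-centred fold changes, in all 4 tables. With the stricter limits of an adjusted p of at most 0.001 and a log2 size of at least 1, RBOHD was called in leaf with both particles, while the count of members called was 0 in root with PS-SO3H, 0 in root with PS-NH2, 0 for the particle difference in root and 0 for root minus leaf with PS-SO3H. RBOHD kept its root minus leaf call with PS-NH2 at these limits. Allowing for an assumed covariance of shared controls, 1 member (RBOHD) differed between particles in leaf. Per coding length RBOHD held 33.5% of the family in root, and RBOHC and RBOHF changed places. No result changed sign in a called value. Depth is unknown, and low levels limit what leaf can show for the 6 members other than RBOHD and RBOHF, whose SEs there were 0.30 to 0.57.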
